A study of Odorrana tormota with 4 samples.

Results

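The hemoglobin chains and red blood cell genes of the brain transcriptome of *Odorrana tormota* were 23 of the 197684 assembled unigenes. They were chosen by annotation: 14 unigenes whose Swiss-Prot description names a hemoglobin subunit, and 9 unigenes with the gene symbol *ALAS2*, *SLC4A1*, *EPB42*, *GATA1* or *CAT*. By the best Swiss-Prot match, 10 of the 23 matched an amphibian protein, all of them globins, 12 matched a mammal protein and 1 a bird protein. By the match given from the non-redundant protein database (NR), 16 matched an amphibian, 5 a bird and 2 a reptile. No member was given a mammal NR match, even where a mammal Swiss-Prot match had a far lower E-value, as for *HBB* below. The bird and reptile NR matches therefore need not be the closest known proteins. Because the mammal Swiss-Prot matches of *ALAS2*, *SLC4A1*, *EPB42* and *CAT* often came with an amphibian NR match, a unigene is called frog-matched here when its NR match was an amphibian. This class includes a few salamander and caecilian matches, the *RHAG* unigene given below among them.

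*O. tormota* is a torrent frog whose males hear and call at high frequencies, and the study compared brains of the sexes. Brain tissue of 12 adult frogs caught in the wild was used, and no treatment is named. Pools F1 and F2 each held equal amounts of RNA from 2 females, pools M1 and M2 each held equal amounts from 4 males, and polyadenylated RNA of each pool gave 1 library. The comparison therefore rests on 2 pools per sex, its p-values measure the spread between pools, and sex and the number of frogs per pool cannot be told apart.

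Hemoglobin is the oxygen carrier of red blood cells, built of alpha and beta chains that each hold a heme group. Adult and larval frogs use different chains, and the bullfrog, a relative in the same family, makes several adult alpha chains named alpha-B and alpha-C. The red cells of frogs keep their nucleus, and in brain samples they are carried in the blood vessels. In these bulk libraries, fewer cells of a type and less RNA per cell cannot be told apart.

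Abundance was given as FPKM, fragments per kilobase of unigene scaled to the size of the library, so that levels of different unigenes are compared per length. A filter kept the 51457 unigenes that reached 1 FPKM in 2 or more libraries, and 14 of the 23 members were among them, 9 globins and 5 others. Differences are female minus male on the log2(FPKM + 0.5) scale, fitted with limma across all 51457 unigenes, with the standard error (SE) of the difference over n = 2 pools per sex. This scale understates the change of low unigenes. Where 4 values stand without pool names, they are in the order F1, F2, M1, M2. The deposited table gives no read counts. The study describes libraries of similar size, and the number of reads behind single values was not computed here.

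Transcripts of tissues next to the brain varied between the pools, with F1 low and F2 high. The summed FPKM of frog-matched pituitary hormone unigenes was 84.7 in F1 and 6681 in F2 against 1609 in M1 and 1086 in M2. That of skeletal muscle unigenes was 2.25, 312, 4.18 and 16.8 in the same order. The sums of frog-matched neuron markers lay closer together, between 1122 in F2 and 1460 in F1, and those of glia markers between 1489 in M2 and 1931 in F1.

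The main alpha-C chain of the frog was the most abundant member in each of the 4 pools. This unigene (comp242196_c1_seq1, 665 bp), which matched the bullfrog *Lithobates catesbeiana* with an E-value of 3e-88, was 777 FPKM in F1 and 4083 in F2 against 6127 in M1 and 3250 in M2. F1 was the lowest pool and M1 the highest, and the sexes overlapped. The alpha-B chain (comp245529_c0_seq1, 1030 bp, E-value 5e-76) was 168, 609, 837 and 529 FPKM in the same order of pools. It ranked the pools in the same way as alpha-C.

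The most abundant frog beta chain (comp245525_c2_seq1, 774 bp) fell outside the naming rule because its Swiss-Prot description is blank, and it is named here after its values were seen. Its match in both databases was the beta chain coded HBB_PELES. Its level was 1562 FPKM in F1 and 6391 in F2 against 8559 in M1 and 4962 in M2, again lowest in F1 and highest in M1. Summed over all frog-matched globin unigenes, those outside the rule included, the globins took 0.376% of the FPKM in F1 and 1.58% in F2 against 2.18% in M1 and 1.27% in M2.

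None of these 3 chains differed between the sexes beyond the spread of the pools. The difference was -1.32 (SE 0.92) for alpha-C, -1.06 (SE 0.70) for alpha-B and -1.04 (SE 0.80) for the beta chain, and the smallest of their adjusted p-values in limma was 0.640. The interval of the alpha-C difference reached 2.55 to either side (95%). Without F2 the alpha-C difference was -2.52, and without F1 it was -0.13, so its size depended on which female pool was kept. Within females, F2 was 5.26-fold above F1 for alpha-C, 3.62-fold for alpha-B and 4.09-fold for the beta chain, each on FPKM + 0.5. Within males, M1 was 1.89-fold, 1.58-fold and 1.72-fold above M2.

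The proportions of the chains varied far less than their levels. The ratio of alpha-C to beta was 0.497 in F1 and 0.639 in F2 against 0.716 in M1 and 0.655 in M2, a span of 1.44-fold. The ratio of alpha-B to alpha-C was 0.216, 0.149, 0.137 and 0.163. F1, the pool with the least globin, thus had the lowest share of alpha-C and the highest of alpha-B, and the other pools lay close to one another.

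**Figure D1:**
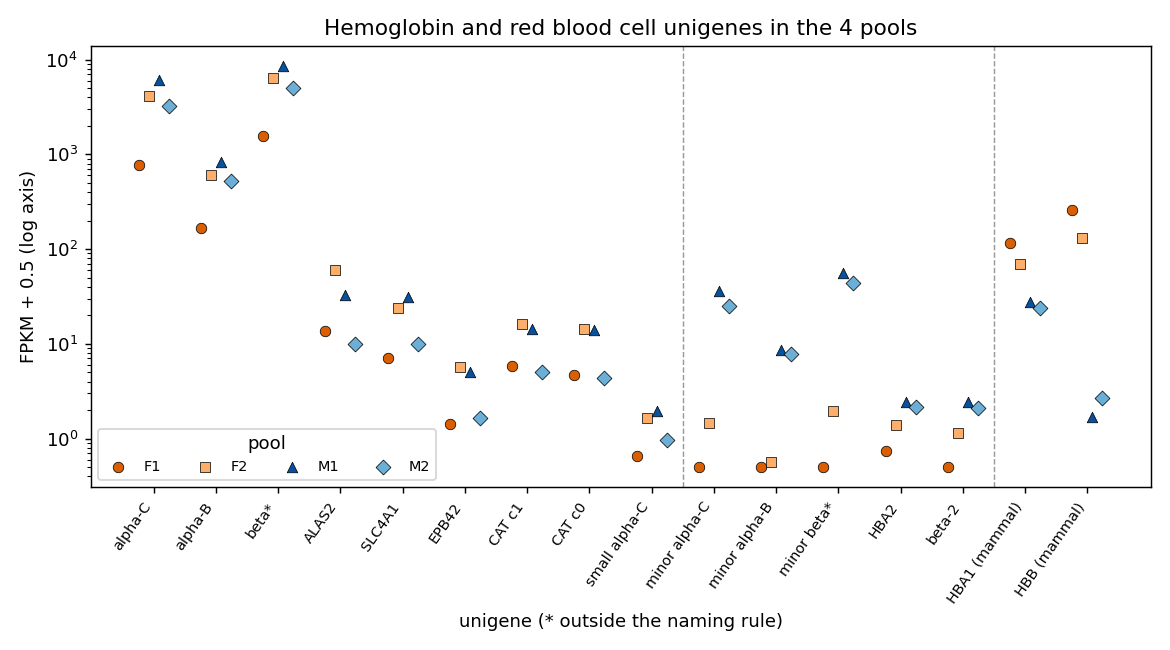
Level of each hemoglobin and red blood cell unigene past the filter in the 4 pools, as FPKM + 0.5 on a log axis, with 1 point per pool (F1 and F2 female, M1 and M2 male). The asterisk marks the beta chains outside the naming rule; left of the first dashed line the sexes overlap, between the lines both male pools are above both female pools, and right of the second line both female pools are above. HBB (mammal) is 256 and 131 FPKM in the female pools and at most 2.19 in the male pools.

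The genes of red cell function with a frog match followed another order than the sexes. *ALAS2*, the erythroid aminolevulinate synthase that starts heme synthesis, was 13.1 FPKM in F1 and 60.2 in F2 against 32.0 in M1 and 9.57 in M2 (comp230684_c0_seq1). F2 and M1 were high and F1 and M2 low. *SLC4A1*, the anion exchanger of the red cell membrane (comp241607_c0_seq2), was 6.64, 23.6, 31.03 and 9.57 FPKM. *EPB42*, a protein of the membrane skeleton that binds the anion exchanger in mammals (comp241741_c0_seq1), was 0.908, 5.15, 4.49 and 1.13 FPKM. Both were also high in F2 and M1 and low in F1 and M2.

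Catalase, the enzyme that breaks down hydrogen peroxide, was present as 2 unigenes with the same *Xenopus laevis* protein as NR match, so reads may have been split between them. The unigene comp235754_c1_seq1 was 5.28 FPKM in F1 and 15.9 in F2 against 13.8 in M1 and 4.54 in M2, and comp235754_c0_seq1 was 4.22, 13.8, 13.4 and 3.86. Their ratio stayed between 1.03 and 1.25 in the 4 pools. A further catalase unigene (comp212677_c0_seq1), outside the rule because its description is blank and named after its values were seen, matched the frog protein CATA_RUGRU. It was 26.9, 33.4, 31.3 and 28.2 FPKM, which is nearly level. The ratio of comp235754_c1_seq1 to it was 0.196 in F1 and 0.161 in M2, against 0.475 in F2 and 0.441 in M1.

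None of the 5 members of these genes that reached the level filter passed the test of a sex difference, with adjusted p-values in limma of 0.848 or more. The difference was 0.67 (SE 0.97) for *ALAS2*, -0.44 (SE 0.85) for *SLC4A1*, -0.02 (SE 0.93) for *EPB42*, and 0.20 (SE 0.76) and 0.08 (SE 0.83) for the catalase unigenes comp235754_c1_seq1 and comp235754_c0_seq1. The direction of each of the 5 turned when 1 pool was left out. The spread lay within the sexes: F2 was 4.48-fold above F1 for *ALAS2*, 3.37-fold for *SLC4A1*, 4.02-fold for *EPB42*, and 2.83-fold and 3.03-fold for catalase. M1 was 3.23-fold, 3.13-fold, 3.06-fold, 2.84-fold and 3.18-fold above M2 in the same order.

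Of the frog-matched members, 8 (the main and a small alpha-C, alpha-B and these 5) were thus over 2-fold higher in F2 than in F1 and over 1.5-fold higher in M1 than in M2, and their sexes overlapped. They were 8 of the 12 frog-matched members past the filter. These conditions were not planned and follow the order of pools seen in these members, so their counts are a description only. Over the 12485 frog-matched unigenes tested, 2.78% met both conditions, and over all unigenes tested 3.16% did. For the small alpha-C unigene (comp248829_c0_seq1), with 0.157 FPKM in F1 and 1.14 in F2 against 1.45 in M1 and 0.475 in M2, only F2 and M1 reached 1 FPKM, so it had to pass the filter through these pools. F2 and M1 were both above F1 and M2 in 8 of the 12, against 18.0% of the frog-matched unigenes and 17.3% of all unigenes tested. Their profiles differed in M2. For the main alpha-C, M2 (3250 FPKM) lay nearer to F2 (4083) than to F1 (777), and likewise for alpha-B. For *ALAS2*, M2 (9.57 FPKM) lay nearer to F1 (13.1) than to F2 (60.2), and likewise for *SLC4A1*, *EPB42*, catalase and the small alpha-C.

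Globin and the other red cell genes did not keep a fixed ratio to each other across the sexes. The main beta chain stood 120-fold above *ALAS2* in F1, 106-fold in F2, 267-fold in M1 and 519-fold in M2. Both male pools were above both female pools in this ratio, and it spanned 4.89-fold. The ratio of the beta chain to *SLC4A1* was 235, 271, 276 and 519, so that M2 alone stood out. The ratio of *SLC4A1* to *EPB42* was 7.32, 4.57, 6.90 and 8.45. No test was run on these ratios.

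**Figure D2:**
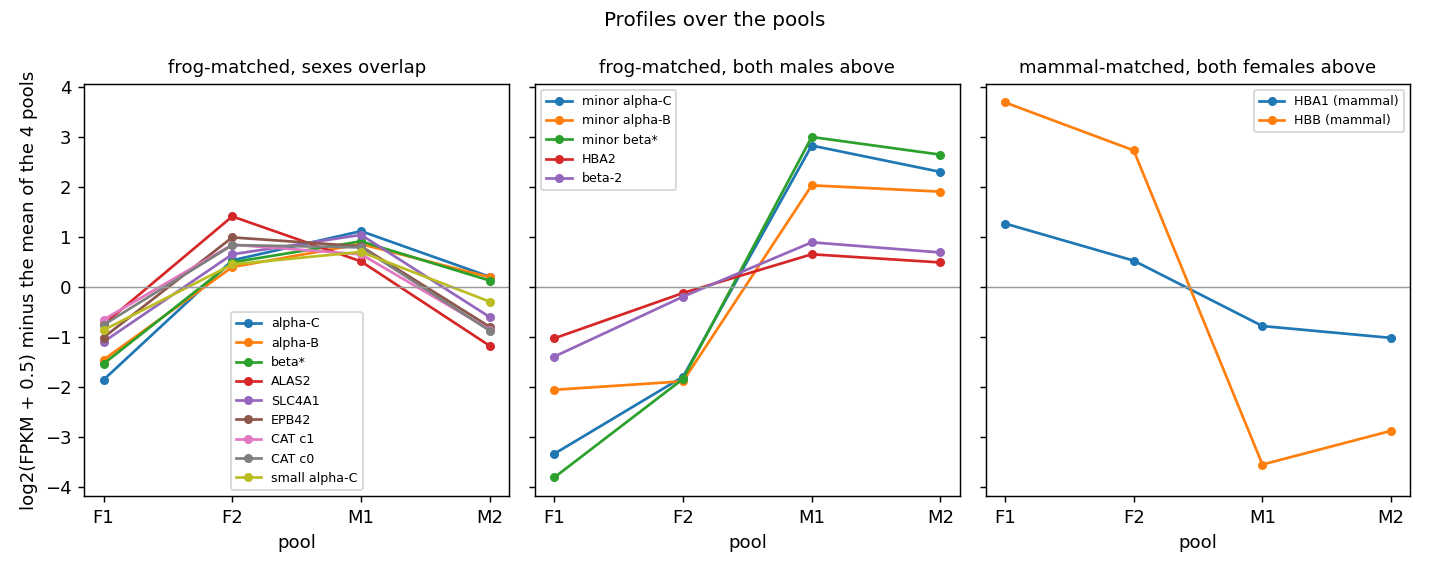
Profile of each unigene over the 4 pools, as log2(FPKM + 0.5) minus its mean over the pools, in 3 groups by overlap of the sexes and matched species. The first group is low in F1 and high in F2 and M1, the second is low in both female pools and the third is low in both male pools.

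A further set of frog-matched globins stood higher in both male pools. A minor alpha-C unigene (comp245655_c0_seq1, 529 bp) matched the same bullfrog protein as the main chain with a weaker E-value, 2e-68. It was listed at 0 in F1 and was 0.957 FPKM in F2, 35.6 in M1 and 24.6 in M2. A minor alpha-B unigene (comp109751_c0_seq1, 960 bp, E-value 9e-73) was listed at 0 in F1, with 0.0627 FPKM in F2, 8.05 in M1 and 7.33 in M2. A minor beta unigene (comp108456_c0_seq1, 333 bp), outside the rule and named after its values were seen, was listed at 0 in F1 and was 1.46 FPKM in F2, 56.0 in M1 and 43.7 in M2. In all 3, the male pools were close to each other and far above both female pools.

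The difference was -5.14 (SE 0.60) for the minor alpha-C, -3.95 (SE 0.26) for the minor alpha-B and -5.66 (SE 0.72) for the minor beta unigene, each with an adjusted p of 0.110 in limma, which does not pass 0.05. The unadjusted p-values in limma were 0.000980, 9.67e-05 and 0.00138. The minor alpha-C and alpha-B unigenes reached 1 FPKM in the male pools only, so the filter kept them through the group where they were high. Reads of a main chain and its minor unigene may have been split or shared in the alignment, so the low values are uncertain.

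Set against the main chain of the same kind, the minor unigenes took a similar share for each chain. In F1 the share was 0% for all 3. In F2 it was 0.0234% for alpha-C, 0.0103% for alpha-B and 0.0229% for beta. In M1 it was 0.578%, 0.952% and 0.650%, and in M2 0.750%, 1.37% and 0.873%. All 3 shares were thus higher in M2 than in M1. The minor unigenes themselves were higher in M1 than in M2, but the main chains, which the share is divided by, were more so.

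The annotated unigenes with the profile most like that of the minor alpha-C were looked for among 8607 outside the members. These had a mean of at least 5 FPKM, and the measure was the distance between centred log2 values over the 4 pools. This search was added after the values were seen. The nearest was a mitochondrially encoded *MT-CO2* unigene (comp44163_c0_seq1, distance 0.52), followed by the minor beta unigene (0.61), *MT-ATP6* (comp43869_c0_seq1, 0.71), *MT-CO1* (comp245616_c0_seq1, 0.80) and *MT-ND2* (comp245668_c0_seq1, 0.87). The NR match of all 4 mitochondrial unigenes was the frog *Fejervarya limnocharis*.

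Other unigenes that matched *Fejervarya* were then looked at, a set prompted by these 4 of its own members, so that its counts are a description only. Of the 10 tested, all were mitochondrially encoded and all had both male pools over 4-fold above both female pools on FPKM + 0.5, against 0.176% (22 unigenes) of the frog-matched unigenes and 1.2% of all unigenes tested. The *MT-CO2* unigene was listed at 0 in F1 and was 1.26 FPKM in F2, 27.2 in M1 and 19.7 in M2. In 6 of the 10 only the male pools reached 1 FPKM, so the filter kept these through the pools where they were high. All 10 were listed at 0 in F1, and their F2 level was between 3.63% and 13.04% of the male mean. For the minor globins the F2 level was 3.18% of the male mean for alpha-C, 0.815% for alpha-B and 2.94% for beta. Of the other 12 unigenes among the 22, 3 were the minor globins, 3 were mitochondrially encoded with other frog matches and 6 were others. The part of this species match in the globin values was not tested, and a match names the nearest protein in a database, not the source of the RNA.

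Both remaining frog-matched members that stood higher in males were low. The alpha-2 unigene (*HBA2*, comp195313_c0_seq1, 520 bp) matched *Xenopus borealis* and was 0.248 FPKM in F1 and 0.903 in F2 against 1.90 in M1 and 1.65 in M2. The beta-2 unigene (comp191677_c1_seq1, 356 bp) matched the water frog *Telmatobius peruvianus* and was listed at 0 in F1, with 0.649 FPKM in F2, 1.94 in M1 and 1.62 in M2. Their differences were -1.15 (SE 0.41) and -1.59 (SE 0.50), with adjusted p-values in limma of 0.412 and 0.359. Both also reached 1 FPKM in the male pools only.

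The annotated unigenes nearest to the beta-2 profile, by the same distance, were a *CD59*-like unigene without a Swiss-Prot match (comp226010_c0_seq1, 0.11), the gonadotropin-releasing hormone precursor *GNRH1* (0.38), the homeobox gene *GBX2* (0.47), a retrotransposon unigene (comp240297_c1_seq3, 0.50) and the histone *H1FX* (0.57). Nearest to the main alpha-C were *PMCH*, the precursor of melanin-concentrating hormone (0.34), *VMO1* (0.38), the main beta chain (0.39) and comp204977_c0_seq1, which matched the protein FR10 of the frog *Rana sylvatica* (0.48). *PMCH* was 5.17 FPKM in F1 and 37.8 in F2 against 55.5 in M1 and 31.9 in M2. Nearest to the main beta chain outside the members, a search added after the values were seen, were the FR10 unigene (0.14) and *SOD3* (0.38). The FR10 unigene was 13.4, 54.0, 72.7 and 38.4 FPKM. Members were left out of all these searches, so alpha-C and alpha-B could not be listed beside the beta chain.

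Globins with a mammal match stood in the opposite direction, higher in both female pools. The alpha chain *HBA1* (comp234601_c2_seq1, 1004 bp) was 115 FPKM in F1 and 68.6 in F2 against 27.4 in M1 and 23.1 in M2. The beta chain *HBB* (comp47776_c0_seq1, 627 bp) was 256, 131, 1.18 and 2.19 FPKM. F1, which had the lowest level of the main frog chains, had the highest level of both.

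The difference was 1.80 (SE 0.29) for *HBA1* and 6.44 (SE 0.43) for *HBB*, with an adjusted p of 0.110 each and unadjusted p-values of 0.00337 and 0.000108 in limma. The interval of the *HBB* difference reached 1.18 to either side and that of *HBA1* 0.80 (95%). When each pool was left out in turn, the *HBB* difference stayed between 5.96 and 6.92 and that of *HBA1* between 1.43 and 2.17. Limma without a mean-variance trend gave *HBB*, and the minor alpha-B unigene, an adjusted p of 0.0433.

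For both chains the Swiss-Prot match had a far lower E-value than the NR match. The E-value of *HBA1* was 2e-95 against the chimpanzee chain and 2e-69 against an alpha chain of *Gallus gallus* in NR. That of *HBB* was 4e-103 against the chimpanzee and 7e-73 against the turtle *Chelonia mydas*. A set that was not planned held 53 tested unigenes with a mammal Swiss-Prot match and no amphibian NR match, these 2 included. Their NR E-value was at least 1e10 times higher, or above 0 where that of Swiss-Prot was listed as 0. The female mean was over 2-fold higher for 69.8% and the male mean for 3.77%, against 3.32% and 6.71% of all unigenes tested. Both female pools were above both male pools in 77.4% of the 53, against 19.2% of all unigenes tested. Some of the 53, such as *HPX* (comp80638_c0_seq1), reached 1 FPKM in the female pools only. The filter kept these through the pools where they were high, so the counts are a description only.

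The alpha and beta chains with a mammal match did not hold one ratio. *HBA1* over *HBB* was 0.450 in F1 and 0.522 in F2, but 23.2 in M1 and 10.6 in M2. In the female pools the beta chain led, and in the male pools the alpha chain did. The male ratios divide by *HBB* levels of only 1.18 FPKM in M1 and 2.19 in M2, with no number added, so their size is uncertain. Together the mammal-matched globins took 0.0558% of the FPKM in F1 and 0.0287% in F2 against 0.00398% in M1 and 0.00363% in M2.

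The annotated unigenes nearest to the *HBB* profile were all farther away than those nearest to the frog chains. They were albumin (*ALB*, 1.87), the mouse urinary protein *MUP1* (2.01), *APOA2*, an apolipoprotein (2.43), *MTCO1* (comp151208_c0_seq1, 2.60) and the plant gene *LHCB1.3* (3.97). For the first 4 the best Swiss-Prot match came from the mouse. *MUP1* was 55.3 FPKM in F1 and 46.1 in F2 against 0.117 in M1 and 3.29 in M2, and its NR match was a bird.

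Over the 14 members past the filter, no unigene was called, as in the whole table, where 0.0% of the unigenes passed an adjusted p under 0.05 in limma. At an unadjusted p under 0.05, 2 members were higher in females and 4 in males, against 4.21% and 7.91% of all unigenes tested. In 2 members both female pools were above both male pools, in 4 both male pools were above, and in 8 the sexes overlapped. Over all unigenes tested the first of these shares was 19.2% and the second 22.8%. By the ratio of sex means over 2-fold, the same numbers were 2 and 4, against 3.32% and 6.71%. The 4 that were higher in males all reached 1 FPKM in the male pools only. The median difference was -0.43 over the 14 and -0.75 over the 12 frog-matched ones, against -0.02 over all unigenes tested and 0.05 over the frog-matched ones.

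**Figure D3:**
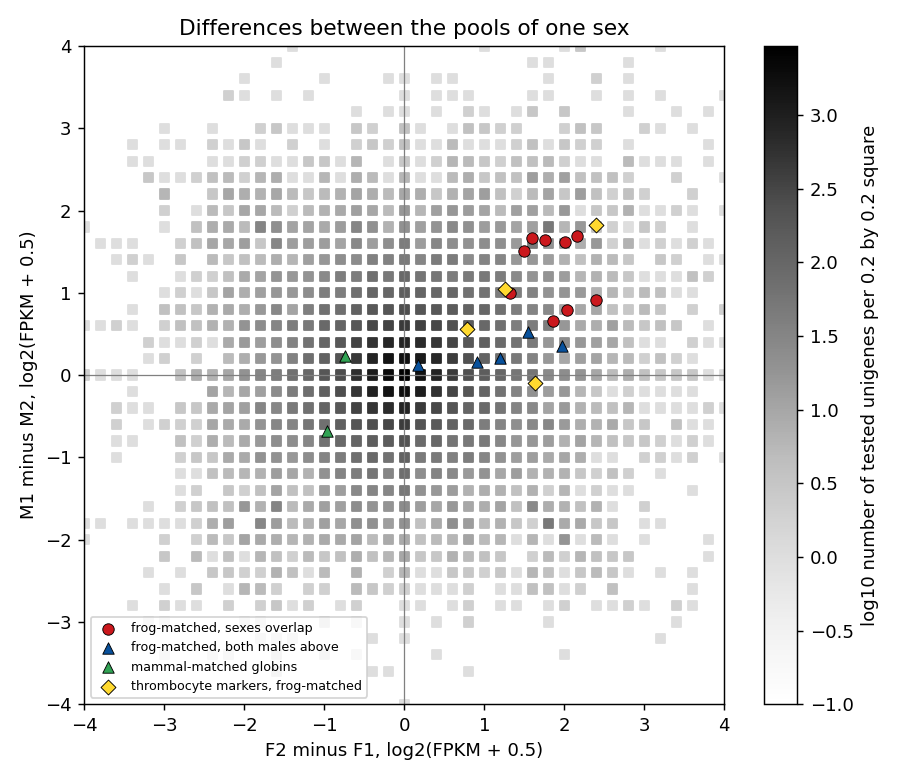
Difference between the pools of one sex for each unigene, F2 minus F1 on the horizontal axis and M1 minus M2 on the vertical axis, both in log2(FPKM + 0.5), with the grey squares giving the number of all unigenes tested from -4 to 4. The 9 frog-matched unigenes whose sexes overlap, the main beta chain among them, lie in the upper right, where F2 is above F1 and M1 above M2; 3 of the 4 thrombocyte markers lie there as well.

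The other 9 members did not pass the filter, and their highest value was 3.02 FPKM. Among the frog-matched globins, an alpha-B unigene (comp269051_c0_seq1, 301 bp) was 0.689 FPKM in F1 and 3.02 in F2 against 0 in M1 and 0.746 in M2. The larval alpha-3 chain of the bullfrog was matched by comp219761_c0_seq1, with 0.668, 0.556, 0.119 and 0.118 FPKM, and by comp27263_c0_seq1, with 0.575, 0.229, 0.344 and 0.226. The larval chain was thus near the floor in each of these adult pools.

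Mammal-matched members below the filter were seen mostly in females. A mouse-matched alpha chain (*Hba*, comp116297_c0_seq1) was 2.39 FPKM in F1 and listed at 0 in the other pools, and a gamma chain that matched the bonobo (*HBG1*, comp271496_c0_seq1) was 1.21 FPKM in F2 and listed at 0 elsewhere. A human-matched *ALAS2* (comp253289_c0_seq1) was 0.611, 0.386, 0 and 0.0216 FPKM, and a mouse-matched catalase (comp188396_c0_seq2) was 0.755, 0.367, 0 and 0.0481. A short *ALAS2* unigene with a frog NR match (comp380540_c0_seq1) was 0.565 FPKM in F2 alone. *GATA1*, the transcription factor of the erythroid lineage, was represented by a chicken-matched unigene of 317 bp (comp309997_c0_seq1) with 1.30 FPKM in M1 and 0 in the other pools. No globin unigene had a bird as its Swiss-Prot match.

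The wider set of red cell genes held 80 genes in 7 lists on heme synthesis, membrane and skeleton, erythroid regulators, iron handling, enzymes, heme breakdown and other globins. Unigenes of 61 of these genes were found, 62 unigenes were tested and none was called. At an unadjusted p under 0.05 in limma, 3 were higher in females and 4 in males, which is near the 4.21% and 7.91% of all unigenes. The median difference was 0.06. Of the 49 frog-matched ones, 7 were over 2-fold higher in F2 than in F1 and over 1.5-fold higher in M1 than in M2, against 2.78% of all frog-matched unigenes. These conditions were taken over from the members above and were not planned.

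Those 7 were membrane, regulator and enzyme genes of the red cell or muscle. *RHD*, a membrane protein of the Rh family, was 7.30 FPKM in F1 and 21.1 in F2 against 14.3 in M1 and 5.64 in M2, and its partner *RHAG* was 5.66, 14.5, 12.0 and 5.98. The erythropoietin receptor *EPOR*, which passes on the signal for red cell formation, was 6.97, 19.0, 11.5 and 4.51 FPKM. The pyruvate kinase *PKLR* of red cells and liver was 8.39, 28.4, 18.5 and 10.7 FPKM. As for *ALAS2*, F2 and M1 were above F1 and M2 in each of these 4. The other 3 were the transcription factor *NFE2*, the spectrin *SPTB* and *TMOD4*, a tropomodulin of muscle that was 1.32, 16.5, 2.74 and 1.15 FPKM. *RHD*, *RHAG*, *NFE2*, *SPTB*, *TMOD4* and *PKLR* are named after their values were seen.

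The heme synthesis genes other than *ALAS2* were nearly level across the pools. *ALAS1*, the form of the synthase used in all tissues, was 32.2 FPKM in F1 and 30.8 in F2 against 28.1 in M1 and 27.4 in M2 (comp238101_c0_seq1). The mitochondrial carrier *SLC25A39* was 22.1, 21.8, 23.997 and 18.3 FPKM, the decarboxylase *UROD* 25.7, 15.1, 20.5 and 20.0, and the porphyrin transporter *ABCB6* 9.56, 9.24, 10.7 and 7.77. None of the 11 frog-matched unigenes of this list was over 2-fold higher in F2 than in F1, a condition whose share over all unigenes was not computed. The median difference of the 12 tested was 0.06.

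In the membrane and skeleton list, the most abundant unigenes also used by other cells were level. *DMTN*, an actin-bundling protein, was 102, 92.9, 79.5 and 87.7 FPKM, and *ADD1*, the adducin, 33.5, 27.4, 28.4 and 29.6. *ANK1*, the ankyrin that ties the anion exchanger to the skeleton, was 16.3 FPKM in F1 and 28.1 in F2 against 25.97 in M1 and 16.4 in M2 (comp236317_c0_seq2), and its other unigene (comp236317_c1_seq1) was 14.2, 16.5, 21.6 and 13.2. In 8 of the 11 frog-matched unigenes of this list, F2 and M1 were both above F1 and M2, against 18.0% of frog-matched unigenes.

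Among erythroid regulators, *LDB1* was 17.0, 13.8, 12.4 and 15.4 FPKM, *TAL1* 10.9, 13.3, 15.6 and 14.4, and *GATA2* 6.25, 5.71, 9.77 and 7.999. *GATA2* had both male pools above both female pools, with a difference of -0.53 (SE 0.18) and an adjusted p of 0.383 in limma. The most abundant iron genes, the exporter *SLC40A1*, the iron sensors *IREB2* and *ACO1* and the receptor *TFR2*, had differences between -0.25 and 0.21. Of the heme breakdown genes, the oxygenases *HMOX2* and *HMOX1* and the reductase *BLVRA* had frog or turtle matches and differences of 0.03, -0.16 and 0.52.

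Of the red cell enzymes, the carbonic anhydrase *CA2* was the most abundant, with 224 FPKM in F1 and 276 in F2 against 181 in M1 and 142 in M2. Both female pools were above both male pools, and the difference of 0.63 (SE 0.19) had an adjusted p of 0.340 in limma. *SOD1*, *HK1* and the main *GPX1* unigene, all of wide use in the body, had differences of -0.04, 0.00 and 0.46.

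Neuroglobin (*NGB*, comp237788_c2_seq2), the globin of neurons, was 22.3 FPKM in F1 and 25.01 in F2 against 33.4 in M1 and 34.9 in M2. Both male pools were above both female pools, the difference was -0.52 (SE 0.12), and the adjusted p in limma was 0.220. It did not share the low level of the blood globins in F1 relative to F2, where it differed by 1.12-fold. The heart muscle alpha-type globin of the bullfrog was matched by comp206021_c1_seq2, outside the rule and named after its values were seen, with 6.54, 7.02, 13.9 and 11.1 FPKM. Its difference was -0.83 (SE 0.17) with an adjusted p of 0.187.

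Low unigenes with a bird or reptile NR match lay in both directions among the other genes. A reptile-matched *GPX1* (comp111873_c0_seq2) was 2.66 FPKM in F1, 2.06 in F2 and 0 in both male pools, and a reptile-matched hemopexin (*HPX*, comp80638_c0_seq1) was 2.08, 1.35, 0 and 0. A bird-matched *FTH1* (comp184308_c0_seq2) was 2.83, 1.15, 0.166 and 0.661 FPKM. Other bird-matched unigenes of the ferritin chain *FTH* (comp111201_c2_seq1) and of *HMOX2* (comp207819_c0_seq1) were listed at 0 in both female pools, with 1.61 and 2.34 FPKM and 2.38 and 3.31 FPKM in M1 and M2. The filter kept all 5 through the sex where they were higher. The Swiss-Prot class alone did not separate the directions, since *HMOX2* matched a mammal there, as did *GPX1*, *HPX* and *FTH1*. The E-values differed, however. *GPX1*, *HPX* and *FTH1* had a lower E-value in Swiss-Prot than in NR, at 2e-139 against 2e-98, 0 against 4e-112 and 2e-133 against 9e-122. For *HMOX2* the Swiss-Prot E-value was higher, at 2e-138 against 0, and *FTH* matched the chicken in both databases.

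Sums of thrombocyte and white blood cell markers were lowest in F1, as the frog globins were, while endothelial markers varied less. Over unigenes of any species match, the summed FPKM of the 7 thrombocyte genes found was 4.63 in F1 and 20.4 in F2 against 15.0 in M1 and 6.10 in M2. The frog-matched unigenes alone summed to 3.36, 13.7, 12.3 and 5.08. In both sums F2 and M1 were above F1 and M2, as for *ALAS2*. The platelet glycoprotein *GP1BB* was 0.568, 5.11, 3.28 and 0.569 FPKM, *GP9* 1.27, 6.70, 2.79 and 1.02, the integrin *ITGA2B* 0.616, 2.18, 2.69 and 1.05 and the clotting factor *F13A1* 0.164, 1.56, 1.39 and 1.53.

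The summed frog-matched white blood cell markers were 28.6, 57.3, 70.2 and 43.9, in the order of the globins. *CD74*, the most abundant of them, was 12.9, 20.7, 41.6 and 21.8 FPKM, with M2 above F2, unlike the globins. The next, *LCP1*, was 4.53, 13.1, 8.88 and 7.17 FPKM, with F2 highest. The order of the sum was thus not the order of either. In 5 of the 6 frog-matched white cell unigenes tested, F2 and M1 were both above F1 and M2, against 18.0% of the frog-matched unigenes tested. The endothelial markers were 14.6, 19.7, 20.4 and 11.7, a smaller spread. None of the 8 endothelial unigenes tested was over 2-fold higher in F2 than in F1. The share over all unigenes was not computed for this condition alone, so the count is a description only. In 4 of these 8, F2 and M1 were both above F1 and M2, again against 18.0%, so blood cell markers were not alone in this order. *FLT1*, a receptor of vascular growth factor, was highest in F1, with 1.49, 0.832, 1.04 and 0.658 FPKM. The pituitary sums, which were lowest in F1 as well, are given above. The part of these cells and tissues in the differences between the pools was not tested.

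**Figure D4:**
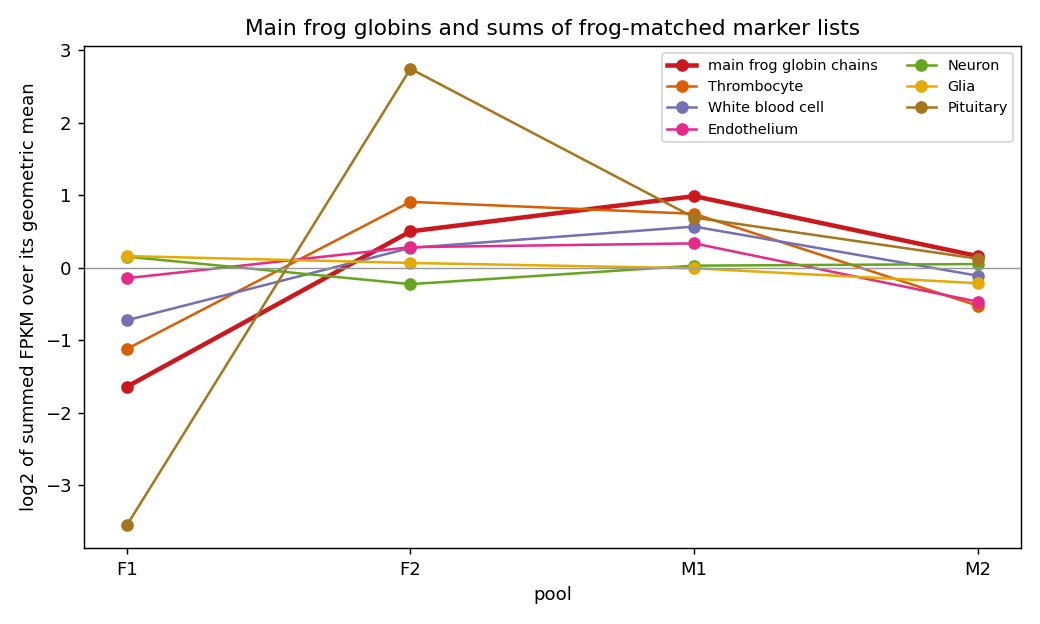
Summed FPKM of the main frog alpha-C, alpha-B and beta chains and of the frog-matched unigenes of 6 marker lists in each pool, as log2 of the sum over its geometric mean across the 4 pools. The globins, thrombocyte and white blood cell sums are lowest in F1, the pituitary sum rises from 84.7 in F1 to 6681 in F2, and the neuron and glia sums stay close to their mean.

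Summed over the unigenes of a class, the alpha chains with an amphibian match (9 unigenes) were 947 FPKM in F1 and 4699 in F2 against 7011 in M1 and 3813 in M2. The log2 ratio of the female to the male mean was -0.94, with a spread of 1.24 (pooled SD, n = 2 pools per sex), and it was -2.51 without F2. The mammal-matched alpha chains (2 unigenes) were 118, 68.6, 27.4 and 23.1 FPKM, a ratio of 1.86 with a spread of 0.40, and the mammal-matched beta chains (2 unigenes) were 256, 132, 1.18 and 2.19, a ratio of 6.48 with a spread of 0.58. The amphibian beta class held the low beta-2 unigene alone within the rule, at -1.47, and with the beta unigenes outside the rule it was 1562, 6394, 8619 and 5008 FPKM, at -0.78.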

How the data were processed

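The authors sequenced polyadenylated brain RNA of 4 pools, 2 per sex. As the paper describes it, reads were cleaned with NGS QC Toolkit, assembled with Trinity, made non-redundant with TGICL and aligned with Bowtie2, and unigenes were matched to NR and Swiss-Prot with BLASTx (E-value threshold 1e-05). The submitters' processing notes name cutadapt, FastQC, Salmon and edgeR, without versions, and the sources do not settle which tools produced the table. The deposited values are FPKM, normalized by the authors for length and library size. The same table gave unigene lengths and the matches of each unigene, and 1 emptied line was left out.

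A unigene was tested if it reached 1 FPKM in 2 or more libraries. The model, fitted to log2(FPKM + 0.5) in R 4.3.3 with limma 3.58.1 (trended prior), had sex as its single term (2 residual degrees of freedom), with Benjamini-Hochberg adjustment over all unigenes tested. DEGseq, which the authors used, needs reads and was left out. The species of a match was read from the description or from the code of the entry. Folds between pools and ratios of sex means use FPKM + 0.5. Nearest profiles are the smallest Euclidean distances between centred log2 values, with the members left out of the candidates.

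Each member past the filter, each member that is not a globin, and up to 4 unigenes per gene list with the highest mean FPKM were to be named. The members and lists were chosen with earlier results of these data known. Counts by the order of F2 and M1 against F1 and M2 were not planned. The script was tested on simulated data. Alternatives were the number added before the logarithm, other scaling, other filters, limma without a trend, omission of each pool, a block for the replicate number, other fold thresholds and sums per gene symbol. Python 3.11.15 with pandas 2.3.3, numpy 2.4.6 and matplotlib 3.10.9 made the tables and figures. No sequences of the unigenes were used here.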

Additional observations from a re-analysis of the deposited data

How the results depend on the processing

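No member was called with 0.1 or 1 added before the logarithm, with median-ratio scaling or quantile normalization, without a filter, with a mean of at least 5 FPKM, with FPKM summed per symbol and matched class, or with any pool left out. Limma without a trend called 2 members (*HBB* and the minor alpha-B), 1251 unigenes in all and 3 of the other red cell genes. Leaving out each pool gave 0 to 1385 calls over all unigenes (1373 without M1, 1385 without M2) and 0 to 2 among the other red cell genes, where the lone pool of a sex is assumed to vary like the others. The labels do not say whether same-numbered pools are paired. The deviations of same-numbered pools had a correlation of -0.11 over all unigenes tested and -0.25 over the frog-matched ones. Each sex gives only a single contrast of pools, so this correlation cannot decide the pairing. With the replicate number as a block 0 members and 0 unigenes were called, and with the crossed pairing, added after seeing the data, also 0. Members past the fold threshold numbered 6, with 9 at 1.5-fold and 3 at 4-fold.

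Without each pool in turn, the class ratio ranged from -2.51 to -0.20 for amphibian alpha chains, -2.19 to -0.99 for beta, and 1.42 to 2.20 for mammal alpha; with the beta unigenes outside the rule, added after seeing the data, it was -0.78. Differences that changed sign ranged, without each pool, from -1.07 to 0.25 for comp248829_c0_seq1, -0.42 to 1.75 for *ALAS2* comp230684_c0_seq1, -0.56 to 0.95 for catalase comp235754_c1_seq1, -0.75 to 0.92 for comp235754_c0_seq1, -1.02 to 0.99 for *EPB42* comp241741_c0_seq1, -1.32 to 0.43 for *SLC4A1* comp241607_c0_seq2, -1.25 to 0.21 for beta unigene comp85189_c0_seq1, and -0.14 to 0.17 for catalase comp212677_c0_seq1. Quantile normalization turned comp248829_c0_seq1 to 0.064, *EPB42* to 0.071 and comp212677_c0_seq1 to -0.0083, and adding 1 turned *EPB42* to 0.0016. The cause was not tested. Values near 1 FPKM are the least certain, and their read counts were not computed here.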

Other observations

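Among further frog globin unigenes outside the naming rule, chosen after their values were seen, a beta unigene (comp85189_c0_seq1) was 0.326 FPKM in F1 and 1.77 in F2 against 2.10 in M1 and 0.974 in M2. Its order of pools was that of the main beta chain, with a difference of -0.52 (SE 0.64). The *Fejervarya*-matched mitochondrial unigenes included *MT-CO3* (comp245630_c0_seq1) at 20.8 FPKM in M1 and 20.3 in M2, *MT-ND2* at 18.9 and 15.3, *MT-ATP6* at 19.1 and 14.4 and *MT-CYB* at 7.21 and 6.27, the lowest of the 10. All of these were at most 1.67 FPKM in F2 and listed at 0 in F1.

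Amphibian unigenes of other genera rarely stood over 4-fold higher in both males. The genus was read only where the NR match gave a species name. Matches with a species code alone, those of the 3 minor globins among them, are therefore left out of these genus counts. Of the 11649 tested that matched *Xenopus*, 3 did, and of 507 that matched *Rana* 4 did. Of 36 that matched *Pelophylax* 1 did, of 8 that matched *Quasipaa* 1 did, and of 17 that matched *Odorrana* none did. The summed FPKM of the *Quasipaa* unigenes was nevertheless higher in both male pools, at 5.29, 8.98, 22.7 and 19.9 in the order F1, F2, M1, M2. That of the 5 *Nanorana* unigenes, none over 4-fold, was 0, 6.97, 13.505 and 28.2. Among the genes outside the members nearest to the main beta chain, the methyltransferase *BHMT* was 1.90, 9.56, 13.1 and 5.22 FPKM. The tyrosine aminotransferase *TAT* was 2.53, 7.80, 13.6 and 5.88, and both are known from the liver of mammals. *RND3*, a GTP-binding protein that lay nearer than *TAT*, was 3.27, 9.92, 16.0 and 7.65. Albumin and *MUP1*, which lay nearest to the mammal-matched *HBB*, stood higher in both female pools instead. The planned list of genes secreted by the liver (18 unigenes, 10 tested, 1 of these frog-matched) summed to 63.8, 51.5, 5.16 and 5.84 FPKM. Its frog-matched unigenes alone summed to 0.445, 2.07, 2.85 and 1.80.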
